A study of Rattus norvegicus with 43 samples.

Results

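A set of innate immune and chemokine genes, 6 of the 14217 genes that the array annotation names, was followed through the study: Lbp, Cd14, Casp4, Ccl2, Cxcl12 and Cd74. A gene was read through the probe sets to which the annotation gives its symbol alone. Lbp, Cd14, Casp4, Ccl2 and Cd74 each had 1 such probe set and Cxcl12 had 3, of which the one with the highest mean over all arrays served as its main readout. The cells were A7r5, a single established line of rat aortic smooth muscle, kept in custom-made DMEM with 2.5, 10 or 100 ng/ml folic acid, named deficient, sufficient and excess, for 7, 14 or 21 days. RNA was read on Affymetrix Rat230_2 arrays, giving 43 arrays in 9 groups. Deficient and excess medium at day 7 had 4 arrays each, and the other groups had 5. All values are GCRMA log2 levels on a relative scale. The sources used here do not say whether the arrays of a group came from separate cultures, so the p-values reflect no more than how far these arrays varied, which may be technical.

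These genes belong to the first line of defence against bacteria and to the signals that draw leukocytes into a vessel wall. Lbp encodes a secreted protein that binds lipopolysaccharide of Gram-negative bacteria and hands it to CD14, which passes it on to the receptor pair of TLR4 and MD-2, the product of Ly96. Caspase-4 (also called caspase-11 in rodents) binds lipopolysaccharide inside the cell and cleaves gasdermin D, which then forms pores in the membrane. CCL2 attracts monocytes through CCR2, and CXCL12 acts through CXCR4 and is also bound by the scavenger receptor ACKR3. CD74, the invariant chain, guides MHC class II molecules through the cell and is a surface receptor for the cytokine MIF.

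Promoter windows of 300 bases were found for 3 of the 6 genes in a RefSeq table of the GRCr8 assembly. Each holds 250 bases before and 50 after the start on which it is built. The table had no entry for Lbp, Casp4 and Ccl2, and all 3 windows found are shown. The Cd14 window lies wholly inside the annotated gene (28609558 to 28611409). The annotated Cd74 gene begins inside its window, at 56527071, before the start used. For Cd14 and Cd74 the distances below are therefore not counted from the outer end of the gene. Capitals mark matches, on either strand, to TATAAA (the TATA box), CCAAT (the CCAAT box), GGGCGG (the GC box), TGANTCA (an AP-1 site), TTCNNNGAA (the STAT palindrome) or the NF-kB consensus.
Cd14, chr18:28611109-28611408, minus strand: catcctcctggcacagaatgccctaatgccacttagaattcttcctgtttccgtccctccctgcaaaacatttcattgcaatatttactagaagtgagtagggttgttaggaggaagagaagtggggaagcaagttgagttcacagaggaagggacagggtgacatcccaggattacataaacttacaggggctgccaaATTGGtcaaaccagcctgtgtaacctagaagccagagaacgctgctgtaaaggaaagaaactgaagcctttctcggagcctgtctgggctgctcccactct
Cxcl12, chr4:152060531-152060830, plus strand: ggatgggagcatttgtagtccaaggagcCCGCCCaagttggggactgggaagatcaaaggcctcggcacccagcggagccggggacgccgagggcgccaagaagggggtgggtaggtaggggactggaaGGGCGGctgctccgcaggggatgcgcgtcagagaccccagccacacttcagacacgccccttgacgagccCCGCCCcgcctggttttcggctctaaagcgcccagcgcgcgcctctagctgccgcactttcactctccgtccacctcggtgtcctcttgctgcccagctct
Cd74, chr18:56526956-56527255, plus strand: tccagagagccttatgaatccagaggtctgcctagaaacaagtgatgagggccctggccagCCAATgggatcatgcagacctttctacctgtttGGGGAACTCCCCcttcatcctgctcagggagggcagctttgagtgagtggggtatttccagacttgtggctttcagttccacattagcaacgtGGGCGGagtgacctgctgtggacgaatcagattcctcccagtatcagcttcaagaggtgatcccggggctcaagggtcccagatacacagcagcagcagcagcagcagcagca
The Cd14 window held CCAAT on the opposite strand, 51 bases before the start, and no other of these motifs. The Cxcl12 window held GGGCGG 222, 121 and 51 bases before the start, the second on the gene's own strand and the others on the opposite one. In the Cd74 window CCAAT began 189 bases and GGGCGG 63 bases before the start, and the NF-kB consensus matched at 3 overlapping places 156, 155 and 154 bases before it. Of all 33469 windows of this length in the table, 14.2% held TATAAA, 37.5% CCAAT, 33.1% GGGCGG, 7.33% TGANTCA, 8.87% TTCNNNGAA and 7.51% the NF-kB consensus.

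Each array was checked against markers of the cell type. All 10 smooth muscle markers passed the filter on low values, a log2 level above 4 in at least 4 arrays, and their mean lay between 10.45 and 11.39 on each array. None of the 12 markers of macrophages and other leukocytes on the array passed; their mean lay between 2.43 and 2.65, and no single one read above 3.48 on any array. Markers of skeletal muscle (5 of 9 passed) moved with medium and day: their mean at day 21 lay between 4.88 and 5.01 in deficient, 4.47 and 4.71 in sufficient and 3.52 and 3.63 in excess medium. Fibroblast markers (5 of 8 passed) ran between 7.41 and 7.61 in excess medium at day 21 and between 7.23 and 7.34 in sufficient, and smooth muscle markers between 10.61 and 10.71 against 11.04 and 11.39. Of the fibroblast markers Pdgfra, Dcn and Fap did not pass. Lum had group means from 1.99 to 5.30, so a single gene can move the fibroblast mean. Endothelial markers (2 of 8 passed) lay between 2.87 and 3.18 in all groups. The 3' minus 5' difference of the beta-actin control, which grows as RNA is degraded or copied less completely, was above 2.1 (log2) on 8 arrays: 2 of sufficient medium at day 7, 3 of excess at day 14 and 3 of excess at day 21. Values without these 8 arrays are given beside the called differences of genes between excess and sufficient medium. The part of the markers in any result was not tested.

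Differences were tested in limma on the 9095 genes that passed the filter, with two-sided tests and Benjamini-Hochberg adjustment over all of them, and a gene is said to have risen or fallen where the adjusted p was at most 0.05. All 6 genes passed the filter, but Ccl2 was above 4 on 28 arrays, among them all 15 of day 21, and Cd74 on 15 arrays, 11 of them of day 21. An error after ± is a standard error from the fit for a difference and an SD for a level.

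Calls among the 6 genes with excess were most frequent at day 21, while the share of all genes called was already near its day 21 value at day 14. With excess against sufficient medium, 1 of 6 passed the test at day 7 (2.37% of all genes did), 2 of 6 at day 14 (41.2%) and 5 of 6 at day 21 (43.7%). The 6 genes were chosen with earlier results of these data known, so their counts beside those of all genes are only a description. The median difference of the 6 was -0.33, -0.14 and -0.99, and that of all genes -0.06, 0.01 and 0.03. With deficient against sufficient medium the counts in limma were 0, 0 and 1 of 6, where 0%, 0.088% and 0.781% of all genes passed. At an unadjusted p under 0.05 they were 1, 2 and 3 of 6, beside 551, 787 and 1118 of all 9095 genes.

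**Figure D1:**
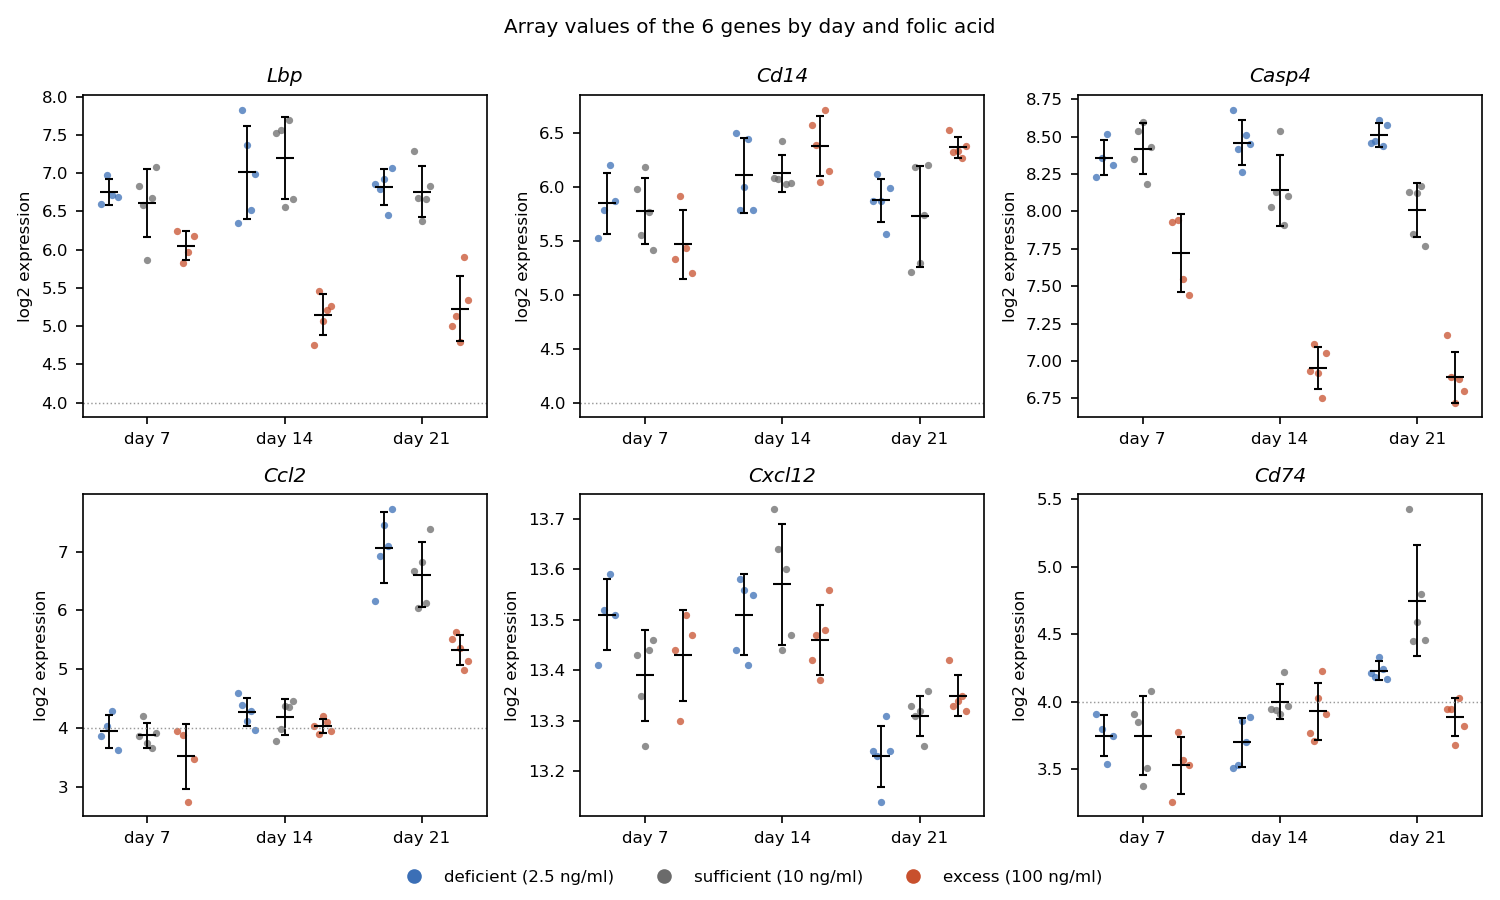
Each point is 1 array and each bar the group mean ± SD (n = 4 or 5) of the main probe set, as log2 expression by day and medium; the dotted line, where in range, is the filter level of 4, and the scales of the 6 panels differ. Lbp and Casp4 are lowest in excess medium at days 14 and 21, and Ccl2 is at 4.99 or higher on every array of day 21.

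Lbp, the carrier of lipopolysaccharide, was the gene of the 6 with the largest response to folic acid. At day 14 its log2 levels in sufficient medium were 6.56, 6.66, 7.52, 7.56 and 7.69, and in excess medium 4.75, 5.07, 5.21, 5.26 and 5.46. The groups did not overlap, and Lbp fell by 2.05 ± 0.24 with excess (4.13-fold, adjusted p = 8.8e-09, limma). In RNA from whole cultures, fewer cells that express a gene and less of its RNA per cell cannot be told apart. At day 21 it read 6.38, 6.66, 6.67, 6.83 and 7.29 in sufficient and 4.80, 5.00, 5.13, 5.34 and 5.90 in excess medium, again without overlap, and fell by 1.53 ± 0.24 (2.89-fold, adjusted p = 1.7e-06). At day 7 the arrays of sufficient medium (5.87 to 7.08) and excess medium (5.82 to 6.24) overlapped, with a difference of -0.56 ± 0.25 (adjusted p = 0.24). Deficient medium, at 6.75 ± 0.17 (n = 4), 7.01 ± 0.61 (n = 5) and 6.82 ± 0.23 (n = 5) on the 3 days, overlapped with sufficient medium on each of them. The differences were 0.14, -0.18 and 0.06, with 95% intervals from -0.37 to 0.65, from -0.67 to 0.30 and from -0.43 to 0.54. Without the 8 arrays of high beta-actin difference, the falls in excess medium were 1.84 ± 0.32 at day 14 and 1.70 ± 0.32 at day 21 (adjusted p = 8.1e-05 and 0.00013).

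The gap between excess and sufficient medium opened for Lbp in the second week. Between day 7 and day 14 Lbp fell by 0.90 ± 0.25 in excess medium (adjusted p = 0.0034) and rose by 0.59 ± 0.24 in sufficient medium (adjusted p = 0.043), and the excess effect changed by -1.49 ± 0.35 (adjusted p = 0.0024). The rise in sufficient medium missed the threshold without any of 6 single arrays (sufficient day 7 replicates 2, 4 and 6 and sufficient day 14 replicates 1, 2 and 3), where it was between 0.40 and 0.60. Without the 8 arrays the fall in excess medium was 0.69 ± 0.33 (adjusted p = 0.11) and the change of the excess effect -1.34 ± 0.43 (adjusted p = 0.06). In the last week the differences were -0.43 ± 0.24 in sufficient and 0.08 ± 0.24 in excess medium, and neither passed the test. In the order of the 9 group means the 3 excess groups stood last, and every pair of neighbours overlapped.

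Cd14, the co-receptor that takes lipopolysaccharide from LBP, went the other way. At day 21 it read 5.21, 5.30, 5.74, 6.19 and 6.21 in sufficient medium and 6.27, 6.33, 6.34, 6.38 and 6.53 in excess, so that every excess array stood above every sufficient one. It rose by 0.64 ± 0.18 with excess (1.56-fold, adjusted p = 0.0035), and by 0.70 ± 0.25 without the 8 arrays (adjusted p = 0.032). The excess arrays lay closer together (SD 0.10) than the sufficient ones (SD 0.47). At day 14 the groups overlapped (6.03 to 6.43 in sufficient, 6.05 to 6.72 in excess) and differed by 0.24 ± 0.18 (adjusted p = 0.28). At day 7 excess medium had the lowest mean of all groups, 5.47 ± 0.32 (n = 4), against 5.78 ± 0.31 (n = 5) in sufficient, a difference of -0.31 ± 0.19 (adjusted p = 0.41). The excess effect changed by 0.95 ± 0.26 between day 7 and day 21 (adjusted p = 0.0061). Within excess medium Cd14 rose by 0.90 ± 0.19 from day 7 to day 14 (1.87-fold, adjusted p = 0.00014), with 5.20 to 5.92 at day 7 and 6.05 to 6.72 at day 14, and no other time step of Cd14 passed the test. Deficient medium gave 5.85 ± 0.28 (n = 4), 6.11 ± 0.35 (n = 5) and 5.88 ± 0.20 (n = 5), and differed from sufficient by 0.07, -0.03 and 0.15, with the widest 95% interval from -0.31 to 0.45, at day 7.

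Casp4, the intracellular sensor of lipopolysaccharide, was lower in excess medium at each day. Its log2 levels in excess medium were 7.44, 7.55, 7.93 and 7.94 at day 7, when the sufficient arrays lay between 8.18 and 8.60, and it fell by 0.70 ± 0.11 (1.63-fold, adjusted p = 0.0006). At day 14 the excess arrays read 6.75, 6.92, 6.93, 7.05 and 7.11 and the sufficient ones 7.91, 8.03, 8.10, 8.13 and 8.54, a fall of 1.19 ± 0.11 (2.29-fold, adjusted p = 1.9e-11). The groups overlapped on none of the 3 days. At day 21 excess medium gave 6.72, 6.80, 6.88, 6.89 and 7.17 and sufficient 7.77, 7.85, 8.12, 8.13 and 8.17, a fall of 1.11 ± 0.11 (2.17-fold, adjusted p = 5.8e-11). Without the 8 arrays the falls were 0.69 ± 0.13, 1.07 ± 0.15 and 0.98 ± 0.15 (adjusted p = 0.012, 2.6e-06 and 5.8e-06). The call at day 7 ended when only the arrays compared entered the fit, where the fall of 0.70 ± 0.13 had an adjusted p of 0.14 and 0 of the 9095 genes passed.

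Casp4 was also the 1 gene of the 6 that passed the test between deficient and sufficient medium. At day 21 it read 8.44, 8.46, 8.47, 8.58 and 8.61 in deficient medium, all above the sufficient arrays, and rose by 0.50 ± 0.11 (1.42-fold, adjusted p = 0.015). Without sufficient day 21 replicate 3 the difference was 0.46 and its adjusted p 0.052. At day 14 the difference was 0.32 ± 0.11 (adjusted p = 0.31) and at day 7 it was -0.06 ± 0.11 (adjusted p = 0.92). The change of the deficiency effect from day 7 to day 21, 0.57 ± 0.16, had an adjusted p of 0.17. Over time Casp4 stayed between 8.36 and 8.51 on average in deficient medium, was at 8.42, 8.14 and 8.01 in sufficient and at 7.72, 6.95 and 6.89 in excess. The fall from day 7 to day 14 was 0.76 ± 0.11 in excess medium (adjusted p = 8.6e-07) and 0.28 ± 0.11 in sufficient (adjusted p = 0.036), and the latter missed the threshold without any of 7 single arrays (sufficient day 7 replicates 2, 5 and 6 and sufficient day 14 replicates 1, 2, 3 and 5), where it was between -0.27 and -0.22. The excess effect changed by -0.49 ± 0.16 between these days (adjusted p = 0.026), and by -0.38 ± 0.20 without the 8 arrays (adjusted p = 0.28). That call also ended without sufficient day 7 replicate 4, excess day 7 replicate 1 or 6, sufficient day 14 replicate 4 or excess day 14 replicate 4, with values from -0.44 to -0.39. In the order of the 9 group means, the arrays of neighbouring groups were separate only between excess medium at day 7 and at day 14.

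**Figure D2:**
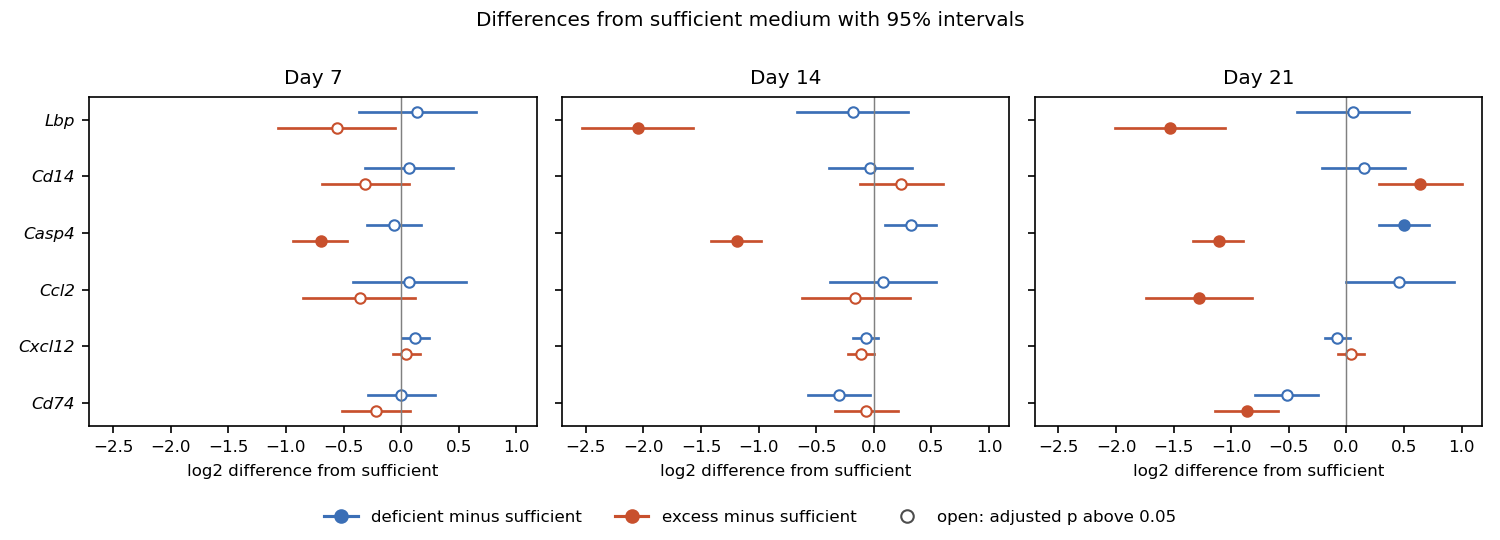
Points are log2 differences from sufficient medium at each day and lines their 95% intervals in limma; filled points had an adjusted p at or below 0.05 over 9095 genes. Excess medium gives filled points for Casp4 at day 7, for Lbp and Casp4 at day 14, and for every gene but Cxcl12 at day 21, and deficient medium only for Casp4 at day 21.

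Ccl2, the monocyte attractant, rose late in culture in every medium. At day 14 its log2 levels were near the filter level, 3.97 to 4.60 in deficient, 3.78 to 4.47 in sufficient and 3.90 to 4.20 in excess medium. At day 21 they were 6.16 to 7.73 in deficient, 6.05, 6.12, 6.67, 6.82 and 7.39 in sufficient and 4.99, 5.14, 5.36, 5.52 and 5.63 in excess medium. No array of day 21 overlapped with day 14. Ccl2 rose by 2.80 ± 0.23 in deficient (6.96-fold, adjusted p = 1.3e-12), by 2.42 ± 0.23 in sufficient (5.34-fold, adjusted p = 7.8e-11) and by 1.29 ± 0.23 in excess medium (2.44-fold, adjusted p = 3.2e-05).

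With excess, Ccl2 at day 21 was below sufficient medium on every array, and it fell by 1.28 ± 0.23 (2.43-fold, adjusted p = 1.6e-05). Without the 8 arrays the fall was 1.04 ± 0.32 (adjusted p = 0.015). Deficient and sufficient medium overlapped at day 21, with a difference of 0.46 ± 0.23 (95% interval from 0.00 to 0.93, adjusted p = 0.40). At days 7 and 14 the excess differences were -0.36 ± 0.24 and -0.16 ± 0.23 (adjusted p = 0.46 and 0.61). The excess effect changed by -1.13 ± 0.32 between day 14 and day 21 (adjusted p = 0.022). This change was -0.77 ± 0.46 without the 8 arrays (adjusted p = 0.41), and it also missed the threshold without sufficient day 14 replicate 1 (-1.02) or sufficient day 21 replicate 6 (-0.93). Between day 7 and day 21 the excess effect changed by -0.92 ± 0.33 (adjusted p = 0.039), a call that ended without any of 12 single arrays (sufficient day 7 replicates 1, 4 and 6, excess day 7 replicates 1, 4 and 6, sufficient day 21 replicates 1, 4 and 6 and excess day 21 replicates 3, 4 and 5), with values from -0.93 to -0.72.

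Cxcl12, the CXCR4 ligand, was read far above background, and its main probe set did not pass the test in any comparison between media. Group means ran from 13.23 ± 0.06 in deficient medium at day 21 to 13.57 ± 0.12 in sufficient medium at day 14 (n = 5 each). The excess differences were 0.04 ± 0.06, -0.11 ± 0.05 and 0.04 ± 0.05 at days 7, 14 and 21, and the deficient ones 0.12 ± 0.06, -0.07 ± 0.05 and -0.08 ± 0.05. The excess difference at day 14 (adjusted p = 0.093) passed the threshold with array weights (-0.16) and without sufficient day 14 replicate 4 (-0.15) or 5 (-0.14), and was -0.06 without the 8 arrays. Deficient minus excess medium at day 21, -0.12 ± 0.05 (adjusted p = 0.056), passed it with array series as a covariate, serials up to 45, a second quantile normalization, a variance trend, array weights or without deficient day 21 replicate 5 (-0.16 to -0.11). The serial is the number in an array's title, and array series splits the arrays at serials above 45, a cut set here. The titles do not name it as a batch. Serials above 45 were uneven, with 3 of 5 arrays in excess medium at day 14 and 0 in deficient medium at day 21. The widest 95% intervals, at day 7, ran from -0.07 to 0.16 for excess and from 0.01 to 0.24 for deficient medium (adjusted p = 0.77 and 0.80). From day 14 to day 21 Cxcl12 fell by 0.28 ± 0.05 in deficient medium (13.41 to 13.58 against 13.14 to 13.31, adjusted p = 9.5e-05) and by 0.26 ± 0.05 in sufficient medium (13.44 to 13.72 against 13.25 to 13.36, adjusted p = 0.00025). In excess medium the step was -0.11 ± 0.05 (adjusted p = 0.16), and the change of the excess effect between these days, 0.15 ± 0.08, did not pass the test (adjusted p = 0.23).

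The 3 probe sets of Cxcl12 disagreed on folic acid; they are called the main, the second and the third by their mean level. Tested each on its own over all probe sets, the third fell by 0.80 ± 0.22 with excess at day 14 (adjusted p = 0.0045) and the second rose by 0.18 ± 0.05 with excess at day 21 (adjusted p = 0.0042), while the main probe set had an adjusted p of 0.10 and 0.59 there. The rise of the main probe set from day 7 to day 14 in sufficient medium, 0.19 ± 0.05 (adjusted p = 0.0047 over genes), was 0.86 ± 0.22 in the third and -0.03 ± 0.05 in the second. All 3 fell from day 14 to day 21 in deficient and in sufficient medium, and in excess medium the second fell too, by 0.32 ± 0.05 (adjusted p = 1.2e-05). The second also differed between deficient and excess medium at day 21 (-0.24 ± 0.05, adjusted p = 0.0002), and the third at day 14 (0.72 ± 0.22, adjusted p = 0.0096).

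The third probe set read lowest on the arrays with a high beta-actin difference. In excess medium at day 14 this probe set read 10.59, 10.67 and 10.70 on the 3 arrays whose beta-actin difference was 2.37, 2.80 and 2.79, and 11.60 and 11.83 on the 2 arrays where it was 1.67 and 1.40. Over all groups it read 10.14 to 10.74 on the 8 arrays above 2.1 and 10.83 to 12.10 on the other 35. Of those 8 arrays, 6 were of excess medium at days 14 and 21, so medium and beta-actin difference cannot be told apart there. The part of either in these readings was not tested. The main probe set read 13.32 to 13.48 on those 8 arrays and 13.14 to 13.72 on the rest, and the second 11.40 to 11.79 and 11.10 to 11.90, so both lay within the range of the other arrays.

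**Figure D3:**
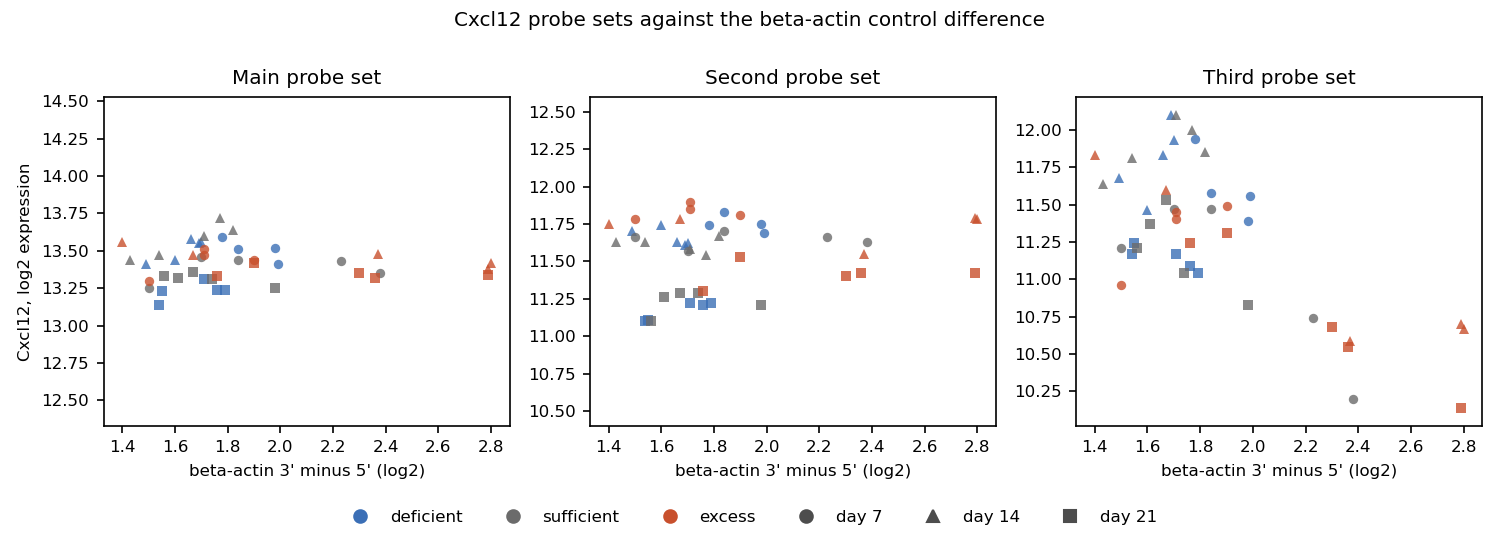
Each point is 1 of the 43 arrays, with the 3' minus 5' beta-actin difference (log2) on the x axis and the log2 level of 1 Cxcl12 probe set on the y axis; the 3 y axes span the same number of log2 units. The 8 arrays above 2.1 are the lowest of the third probe set, at 10.14 to 10.74, and lie inside the range of the other arrays for the main one and the second.

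Cd74, the MHC class II chaperone, was read close to the filter level throughout. In sufficient medium at day 21 it reached 4.45, 4.46, 4.59, 4.80 and 5.43, while the arrays of deficient medium read 4.17, 4.18, 4.21, 4.24 and 4.33 and those of excess medium 3.68, 3.82, 3.95, 3.95 and 4.03. The 3 media were fully separated at day 21, with sufficient on top. With excess Cd74 fell by 0.86 ± 0.14 (1.82-fold, adjusted p = 2.2e-06), or by 0.80 ± 0.18 without the 8 arrays (adjusted p = 0.0014). The difference of deficient from sufficient medium, -0.52 ± 0.14, had an adjusted p of 0.051, and it depended on single arrays. It passed the threshold without sufficient day 21 replicate 3 or replicate 6 (-0.59 in both), and was -0.35 (adjusted p = 0.24) without replicate 1, the array at 5.43. At days 7 and 14 the excess differences were -0.22 ± 0.14 and -0.07 ± 0.14, and the deficient ones -0.00 ± 0.14 and -0.30 ± 0.14 (adjusted p = 1.00 and 0.52, the latter with arrays that did not overlap). Cd74 rose by 0.75 ± 0.14 from day 14 to day 21 in sufficient medium (adjusted p = 3.6e-05) and by 0.53 ± 0.14 in deficient (adjusted p = 0.0019), and the step in excess medium was -0.05 ± 0.14 (adjusted p = 0.86). The excess effect changed by -0.80 ± 0.19 between these days (adjusted p = 0.0057), and by -0.61 ± 0.26 without the 8 arrays (adjusted p = 0.22). The rise from day 7 to day 14 in excess medium, 0.40 ± 0.14 (adjusted p = 0.021), missed the threshold without excess day 7 replicate 1 (0.31), without excess day 14 replicate 4 (0.32) and without the 8 arrays (0.28).

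Deficient against excess medium, which shares its arrays with the comparisons above, gave 1, 2 and 5 of 6 at the 3 days, beside 5%, 40.3% and 50.9% of all genes. At day 21 Lbp was 1.59 ± 0.24, Casp4 1.62 ± 0.11, Ccl2 1.75 ± 0.23 and Cd74 0.34 ± 0.14 higher in deficient medium, and Cd14 differed by -0.49 ± 0.18. The calls of Cd14 (adjusted p = 0.021) and Cd74 (adjusted p = 0.034) in this comparison ended without the 8 arrays (-0.55 and 0.28, adjusted p = 0.082 and 0.25). Both also ended with array series as a covariate (-0.38 and 0.28), and that of Cd14 without deficient day 21 replicate 5 (-0.41). That of Cd74 ended too with serials up to 45 (0.25) and with beta-actin as a covariate (0.35). Leaving out deficient day 21 replicate 4 or 5 or excess day 21 replicate 3 or 5 (0.29 to 0.34) also ended the call of Cd74.

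From day 7 to day 14, 0 of 6 genes passed the test in deficient medium (45.6% of all genes), 3 in sufficient (44.6%) and 4 in excess (48.2%). In deficient medium 0 of 6 also had an unadjusted p under 0.05, beside 4734 of all 9095 genes. From day 14 to day 21, 3 passed in deficient (38.8%), 3 in sufficient (34.6%) and 1 in excess medium (23.2%). In deficient and in sufficient medium the 3 genes of this later step were Ccl2, Cd74 and Cxcl12. The excess effect changed between days for 2 of 6 genes from day 7 to day 14 (18.4% of all genes), 2 from day 14 to day 21 (8.61%) and 4 from day 7 to day 21 (24.5%). The deficiency effect changed from day 7 to day 21 for 0 of 6 (0.044%) in limma, and for 3 of 6 at an unadjusted p under 0.05, beside 984 of all 9095 genes.

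The receptors and partners of the 6 genes divided into those read well above background and those read near it. Ly96, which encodes MD-2, had group means between 8.62 and 9.19 and Tlr4 between 5.50 and 5.97, and neither passed the test for excess or deficient against sufficient medium on any day. Both were higher in deficient than in excess medium at day 14, Tlr4 by 0.35 ± 0.14 and Ly96 by 0.22 ± 0.09 (adjusted p = 0.037 for each). These calls ended without the 8 arrays (0.41 and 0.20, adjusted p = 0.092 and 0.21). For Tlr4 the excess difference was -0.41 ± 0.14 at day 7 (adjusted p = 0.11) and 0.27 ± 0.14 at day 21 (adjusted p = 0.10), and its change between these days, 0.69 ± 0.20, passed the test (adjusted p = 0.0092; 0.82 without the 8 arrays, adjusted p = 0.022). Gsdmd, the pore former that caspase-4 cleaves, rose by 0.67 ± 0.11 with excess at day 21 (6.57 to 7.24, adjusted p = 3.4e-06), or by 0.72 ± 0.15 without the 8 arrays, on the day when Casp4 itself fell by 1.11.

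Mif, a ligand of CD74, fell with excess by 0.64 ± 0.09 at day 14 (11.31 to 10.67, adjusted p = 2.2e-07) and by 0.50 ± 0.09 at day 21 (adjusted p = 1e-05). With those 8 arrays left out it fell by 0.65 and 0.50 (adjusted p = 6.2e-05 and 0.001). Ackr3, the scavenger of CXCL12, was at 12.27 to 12.77 and fell from day 14 to day 21 by 0.43 ± 0.05 in deficient, 0.46 ± 0.05 in sufficient and 0.36 ± 0.05 in excess medium, with no call for folic acid. The signalling receptors Ccr2 (1.81 to 1.94) and Cxcr4 (2.53 to 2.69) and the class II transactivator Ciita (2.95 to 3.16) stayed under the filter level in every group mean and were not tested.

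**Figure D4:**
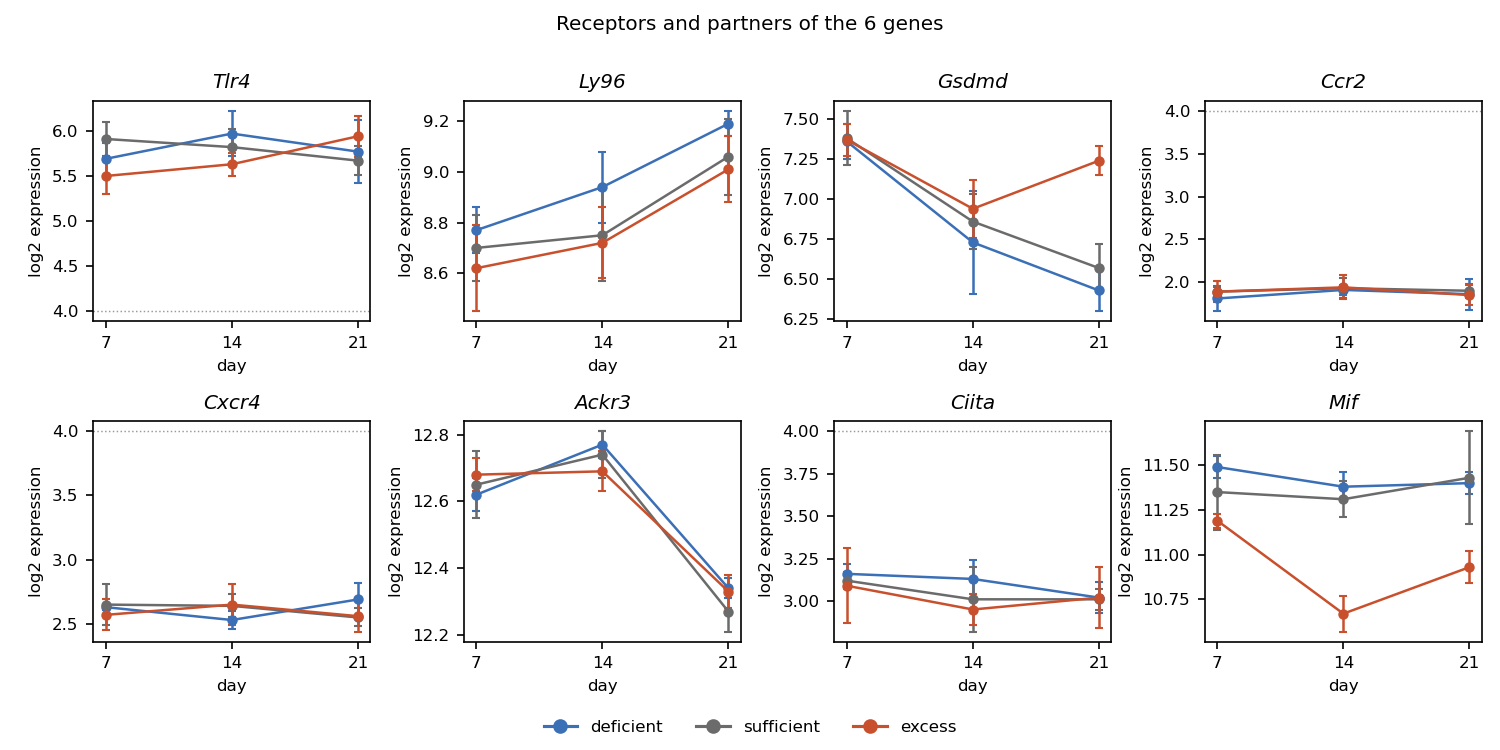
Points are group means of log2 expression by day and medium, bars are SDs (n = 4 or 5), and the dotted line, where in range, is the filter level of 4; the scales of the 8 panels differ. Gsdmd in excess medium leaves the other media at day 21, Mif is lowest in excess medium on every day, and Ccr2, Cxcr4 and Ciita lie under 4.

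Other genes of these pathways were taken from 8 lists with 180 symbols in all, of which 60 passed the filter. Deficient against sufficient medium gave 0 calls among these 60 in limma at each day. At an unadjusted p under 0.05 it gave 3, 6 and 9 of the 60, beside 551, 787 and 1118 of all 9095 genes. The counts below stand beside 43.7% of all genes called with excess at day 21, and 34.6% from day 14 to day 21 in sufficient medium. These shares are of the fit with all arrays, and none is given beside the counts without the 8 arrays. Of 13 measured genes of lipopolysaccharide recognition and Toll-like receptor signalling, 5 rose and 1 fell with excess at day 21 (median 0.10). Of these, 1 rise and 1 fall remained without the 8 arrays. The 5 rises include Tirap, which was above 4 on 0 arrays of day 7 and 4 of day 14. At day 21 Tirap was above 4 on 4 arrays of excess, 1 of sufficient and 0 of deficient medium. Most arrays of that day that took it past the filter were thus of excess medium, and its rise is not a separate result. Tollip, a brake on the pathway, fell by 0.38 ± 0.11 at day 21 (-0.47 without the 8 arrays), and Myd88, the shared adaptor, rose by 0.47 ± 0.09 at day 14 (adjusted p = 4.2e-05; 0.35 without them, adjusted p = 0.015). Of 11 NF-kB subunits and inhibitors 4 rose and 0 fell with excess at day 21 (median 0.13), and 2 rose without the 8 arrays. The 4 include Relb, which passed the filter only through 4 arrays, all of excess medium at day 21, so its rise is not a separate result. In sufficient medium the NF-kB inhibitor Tnfaip3 rose by 1.37 ± 0.12 from day 14 to day 21 (5.50 to 6.88). Nfkbiz read 3.20 at day 14 and 4.30 at day 21. It passed the filter only through arrays of day 21, so no test is given for this step.

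Of 5 measured genes of inflammatory caspases, inflammasome and pyroptosis, 2 rose and 2 fell with excess at day 21 (median -0.14), and the 2 that rose remained without the 8 arrays. Casp1, the caspase that matures interleukin-1 beta, rose by 0.77 ± 0.13 (5.09 to 5.86, adjusted p = 5.5e-06; 0.96 without the 8 arrays), opposite to Casp4. At day 14 Ninj1, which mediates membrane rupture, fell by 0.52 ± 0.15 (-0.78 without the 8 arrays), and Casp12 by 0.53 ± 0.14, a call that ended without them (-0.22, adjusted p = 0.26). Chemokines besides the 2 members were nearly all under the filter level: 2 of 29 ligands and 2 of 16 receptors on the array passed it. Ccl7, another monocyte attractant, read 3.12 at day 14 and 4.01 at day 21 in sufficient medium and 3.64 in excess medium at day 21. It passed the filter through 4 arrays, all of day 21 and none of excess medium, so no test is given for it.

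Of 11 measured genes of MHC class II and antigen presentation, 1 rose and 5 fell with excess at day 21 (median -0.16), and 1 rose and 3 fell without the 8 arrays. RT1-Db1, a class II beta chain, rose by 1.48 ± 0.13 from day 14 to day 21 in sufficient medium (5.84 to 7.33, adjusted p = 1.3e-11) and fell by 1.21 ± 0.13 with excess at day 21 (2.31-fold, adjusted p = 7.6e-10; -1.26 without the 8 arrays), the same directions as its chaperone Cd74. In sufficient medium at that step 4 of the 11 rose and 1 fell. Ctsl, a protease that trims the invariant chain, fell by 0.53 ± 0.05 with excess at day 21 (-0.49 without the 8 arrays). Of 9 interferon response genes 2 rose and 1 fell with excess at day 21 (median -0.04), and 2 of these 3 calls remained without the 8 arrays. Irf1, a transcription factor, rose by 0.96 ± 0.11 (adjusted p = 5.8e-09), and by 0.96 ± 0.16 without those arrays. Of 8 genes of acute phase and complement 4 rose and 2 fell (median 0.26), and 3 rose and 2 fell without the 8 arrays. C1r and C1s, the proteases of the first complement component, were at 0.86 ± 0.11 and 0.83 ± 0.12 (0.82 and 0.72 without them). Cd55, which limits complement on the cell surface, was at -0.93 ± 0.13 (-0.89 without them). From day 14 to day 21 in sufficient medium 6 of these 8 rose and 0 fell (median 0.49), among them the cytokine Il6, from 9.02 to 9.54 (adjusted p = 2.1e-06). That count includes Serping1, the inhibitor of those proteases, which read 3.03 at day 14 and 4.63 at day 21 and passed the filter only through arrays of day 21. The median of all genes was 0.03 with excess at day 21 and 0.01 at that time step.

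The genes whose levels were most like each member over the 43 arrays were found by Pearson's r, which is given as a description, since arrays of a group share their medium and day. Casp4 was closest to Gadd45a, a growth arrest gene (r = 0.95), and Map2k1, the kinase MEK1 (0.94). Gadd45a averaged 10.66 in sufficient and 8.98 in excess medium at day 14. Ccl2 was closest to Mlana (0.95) and Nkd2, an inhibitor of Wnt signalling (0.93); Mlana, known from melanosomes, read 2.66 at day 14 and 5.80 at day 21 in sufficient medium. Lbp was closest to Pdlim1 (0.92) and Ablim3 (0.90), both LIM-domain proteins of the actin cytoskeleton, and Cd14 to Dnajc5 (0.81) and Pank3 (0.78). Cxcl12 was closest to Col1a2, a chain of type I collagen (0.83), and Rac1 (0.81), and Cd74 to Entrep1 (0.80) and Smim1 (0.79). Over the 9 group means, Gadd45a, Mlana and Dnajc5 were again among the 2 closest genes of Casp4, Ccl2 and Cd14, and the closest genes of Lbp, Cxcl12 and Cd74 were different ones. Among the 6 genes themselves r was highest for Lbp with Casp4 (0.78) and for Ccl2 with Cd74 (0.68), and lowest for Ccl2 with Cxcl12 (-0.68) and Lbp with Cd14 (-0.43).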

How the data were processed

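RNA of 43 A7r5 samples in 9 groups was measured on Affymetrix Rat230_2 arrays. The authors deposited log2 values, and GCRMA, which corrects background from probe sequence and normalizes across arrays, and limma are named in the submitters' processing notes without versions. Arrays have no read depth; their number limits how precisely a level is known. Of 31099 probe sets, 20832 had 1 symbol in the platform annotation, 436 several and 9831 none. Each gene was read by its probe set of highest mean, and the 9095 of 14217 genes with a log2 level above 4 in at least 4 arrays were tested, without the 57 controls. Array medians lay between 3.66 and 3.72, replicates correlated at 0.9911 to 0.998, and 0 pairs of arrays were identical.

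The 9 group means were fitted over all arrays in limma 3.58.1 (R 4.3.3), which left 34 residual degrees of freedom. From this fit 19 comparisons were taken. The procedure was also run on simulated data with independent noise on each array, which cannot address RNA quality or array series. Figures were drawn with matplotlib 3.10.9. Promoters, motifs and gene names came from RefSeq tables of GRCr8. From each pathway list up to 3 genes past the threshold with the largest differences in a comparison with sufficient medium, or between days in it, could be named; the 6 members, their 8 partners and, for each member, the 2 most correlated genes were named whatever their values. The alternatives were other filters, probe sets and scalings, array series, array weights, a variance trend, a replicate block, beta-actin limits and leaving out each array. The members and lists were chosen with earlier results of these data known.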

Additional observations from a re-analysis of the deposited data

Results flagged for a closer look

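The excess effect differed between days, by a test of the difference itself in limma, for 8 of 18 combinations of gene and pair of days. The deficiency effect, tested from day 7 to day 21, gave 0 of 6 in limma. At an unadjusted p under 0.05 it gave 3 of 6, beside 984 of all 9095 genes. Between day 7 and day 14 the excess effect changed by -1.49 for Lbp and by -0.49 for Casp4. Between day 14 and day 21 it changed by -1.13 for Ccl2 and by -0.80 for Cd74. Between day 7 and day 21 it changed by -0.97 for Lbp, 0.95 for Cd14, -0.92 for Ccl2 and -0.64 for Cd74. Without the 8 arrays of high beta-actin difference, the change of Cd14 kept its call (1.02, adjusted p = 0.04) and the other 7 missed the threshold. In the order above those were -1.34, -0.38, -0.77 and -0.61, then -1.21 for Lbp, -0.78 for Ccl2 and -0.67 for Cd74. The changes of Lbp and Cd74 from day 7 to day 21 were thus as large or larger with fewer arrays, with standard errors of 0.43 and 0.25 in place of 0.35 and 0.20. For Lbp from day 7 to day 21 the change also missed it without any of 9 single arrays (sufficient day 7 replicates 2 and 6, excess day 7 replicates 1 and 4, sufficient day 21 replicates 1 and 6, and excess day 21 replicates 1, 2 and 3), with values from -0.97 to -0.79.

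A single array stood apart from its group in 2 of 54 groups tested, and chance alone flags about 1 group in 20. Cd14 read 6.43 in sufficient medium at day 14, replicate 4, with a gap to its neighbour of 0.844 of the range of the group, above the critical value of 0.71. The same array had the highest Casp4 (8.54) and the lowest Lbp (6.56) and Cxcl12 (13.44) of its group. Cd74 read 4.22 in sufficient medium at day 14, replicate 3, with a gap of 0.809 of the range.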

How the results depend on the processing

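Of 39 called differences among the 114 of the 6 genes, 18 kept their call under every alternative in which the gene was tested. The other 21 lost it under at least 1, 10 of them on leaving out a single array. Cd74 did not pass the filter at 5, so its differences were not tested there. Counts of the 6 genes called moved as follows. With excess at day 7 (1 gene) the count was 2 with Cxcl12 read by its second probe set, 0 with beta-actin within log2 of 3 and 0 with only the groups compared. For deficient against excess medium it was 3 with array weights and 2 with only the groups compared at day 7, and 3 with the beta-actin limit of 2.1, chosen after seeing the data, at day 21. For deficient against sufficient medium at day 21 (1 gene) it was 2 with array series or beta-actin as a covariate, with serials up to 45, array weights or a variance trend, and 1 to 2 on leaving out single arrays, where Cd74 was the gene gained. From day 7 to day 14 in sufficient medium (3 genes) it was 1 with the replicate block, 1 with the limit of 2.1, 0 with only the groups compared and 1 to 3 on leaving out single arrays. In excess medium (4 genes) it was 0 with log2 of 3 and 2 with 2.1. From day 14 to day 21 it was 1 in deficient medium with log2 of 3, and 2 in excess medium with the second Cxcl12 probe set or with array series. For the excess effect from day 7 to day 14 (2 genes) it was 1 with serials up to 45, the beta-actin covariate or only the groups compared, 0 with log2 of 3 or 2.1, and 1 to 2 on leaving out single arrays. Between day 14 and day 21 (2 genes) it was 1 with a filter at 5, where Cd74 was not tested. It was also 1 with serials up to 45, 0 with 2.1, and 1 to 2 on leaving out single arrays. Between day 7 and day 21 (4 genes) it was 1 with serials up to 45 or 2.1, 2 with the beta-actin covariate or only the groups compared, and 2 to 5 on leaving out single arrays. The rise of Cxcl12 from day 7 to day 14 in sufficient medium turned to -0.03 by the second probe set, and the step of Lbp from day 14 to day 21 in sufficient medium turned to 0.68 with log2 of 3, which left 9 arrays in 7 groups; the causes were not tested.

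Deviations of arrays with the same replicate number correlated between -0.54 and 0.59. With 2 to 4 shared numbers in a comparison, these values cannot decide whether the numbers pair the samples. Besides the count given above, the replicate block moved no count of the 6 genes by over 1.5 times. Over genes (9095 tested, 8105 with the filter at 5 and 14217 with none) the counts called ranged, across the alternatives, from 0 to 783 (main 216) with excess at day 7, 347 to 4309 (3743) at day 14 and 2619 to 4352 (3974) at day 21. They ranged from 0 to 10 (0), 0 to 106 (8) and 43 to 323 (71) for deficient against sufficient medium, and from 198 to 1651 (455), 312 to 4264 (3666) and 3380 to 5165 (4628) for deficient against excess. From day 7 to day 14 they ranged from 3874 to 4732 (4145), 1200 to 4426 (4059) and 734 to 4737 (4380) in deficient, sufficient and excess medium, and from day 14 to day 21 from 525 to 4862 (3532), 1142 to 4534 (3148) and 1111 to 2325 (2108). For the excess effect they ranged from 0 to 2649 (1678), 293 to 1532 (783) and 1222 to 2726 (2232), and for the deficiency effect from 2 to 59 (4). Testing each of 15743 probe sets instead gave, for example, 6325 and 6160 probe sets with excess at days 14 and 21. Quantile normalization again moved the split at day 7 from 25 higher and 191 lower to 31 and 109 with excess, and from 367 and 88 to 208 and 111 for deficient against excess. Cd74, and Ccl2 before day 21, lay near the filter level, where signal over background limits the precision.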
